A study of Rattus norvegicus with 16 samples.

Results

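Hmox1, the inducible heme oxygenase, was examined in rat liver together with 9 genes of heme turnover and of the NRF2 response: Blvra, Blvrb, Alas1, Nqo1, Gclc, Gclm, Txnrd1, Srxn1 and Slc7a11. The 10 genes were chosen by symbol for their roles, with earlier results of these data known. Each was found among the 17055 gene symbols of the count tables. The livers came from 48 male Sprague-Dawley rats, aged 10 weeks, and were taken 8 h after celiotomy under continuous anesthesia. There were 4 groups of 12 rats, and RNA of 3 rats was pooled for each library, which gave 4 single-end libraries per group. The Isoflurane-sepsis group (libraries 1 to 4) was induced and kept on isoflurane and underwent cecal ligation and puncture (CLP), in which the tied and pierced cecum leaks stool into the abdomen. The Isoflurane-control group (libraries 5 to 8) had the same anesthetic, and its cecum was only taken out and put back. The Propofol-sepsis (libraries 9 to 12) and Propofol-control (libraries 13 to 16) groups were induced with ketamine-xylazine and then kept on a propofol infusion, with CLP and sham surgery respectively. No group was left without anesthesia and surgery. The induction drug, and the code that opens the names of the deposited files, changed together with the anesthetic, so in any isoflurane against propofol comparison these cannot be told apart.

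Heme is built in a chain of steps that starts with 5-aminolevulinate synthase, encoded in liver by Alas1, and much of hepatic heme goes into cytochrome P450 enzymes. Heme oxygenase opens the heme ring and releases iron, carbon monoxide and biliverdin. In adult tissue it is mainly the biliverdin reductase Blvra that turns biliverdin into bilirubin, which the liver conjugates and exports. Blvrb encodes another biliverdin reductase, which also acts as a flavin reductase. NRF2 (Nfe2l2) is a transcription factor that is held low by KEAP1 and, once stabilized, binds antioxidant response elements with small MAF partners, while BACH1 occupies many of the same elements until heme displaces it. Its targets include genes for glutathione synthesis (Gclc, Gclm and the cystine carrier Slc7a11), for the thioredoxin and peroxiredoxin system (Txnrd1, Srxn1), the quinone reductase Nqo1 and Hmox1 itself.

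The core of the antioxidant response element, TGACNNNGC (GCNNNGTCA read on the other strand, with N for any base), was searched on both strands of the RefSeq promoters (assembly GRCr8, 250 bases before to 50 bases after each start). Promoters were found for 9 of the 10 genes, Hmox1 being the exception, and 3 of the 10 promoters of these 9 genes (Txnrd1 has 2) held a match, against 12.1% of all 33469 promoters. The 3 matches are shown because Gclm and Txnrd1 are among the genes whose levels differed below. Each sequence is 49 bases along the strand of its gene, with the matched element in capitals. The element began 172 bases before the start of Gclm, 78 bases before the second start of Txnrd1 and 145 bases before that of Blvra. The windows were chr2:213031943-213031991 on the plus strand, chr7:22755954-22756002 on the minus strand and chr3:134802745-134802793 on the plus strand. A match describes these letters and is not evidence of binding. Nor is the lack of a match evidence that a gene has no such element. Only this core was searched, which leaves out, for example, the TGAGTCAGC in the Srxn1 promoter, and sequence beyond these 300 bases was not searched.
Gclm: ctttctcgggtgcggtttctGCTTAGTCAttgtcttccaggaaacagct
Txnrd1: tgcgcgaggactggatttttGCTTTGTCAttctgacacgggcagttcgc
Blvra: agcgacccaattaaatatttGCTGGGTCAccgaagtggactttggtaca

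Between 14199422 and 49937173 reads per library fell on genes, and the 10 genes had at least 74 reads in every library. Levels are given as CPM, the read count of a gene per 1000000 reads on genes, scaled by the TMM factors of edgeR, always in order of library number. Since CPM takes no account of transcript length, levels are compared between libraries and not between genes. In each comparison all genes that passed a filter on low counts were fitted with edgeR, and a gene was called at a Benjamini-Hochberg adjusted p below 0.05. The p-values measure the spread between pools, and in bulk liver a change in the number of cells of a type cannot be told apart from a change in RNA per cell. Hepatocyte markers were present in all libraries, 8 of 8 above 0, with a summed level of 117432 to 140309 CPM in Isoflurane-sepsis, 136534 to 146078 CPM in Isoflurane-control, 96056 to 109446 CPM in Propofol-sepsis and 100497 to 111312 CPM in Propofol-control. The 12 neutrophil and monocyte markers each had reads in every group, though not necessarily in every library. They summed to 185, 262, 433 and 498 CPM in the Isoflurane-sepsis libraries against 61.6 to 69.3 CPM in their controls. They summed to 128 to 201 CPM in Propofol-sepsis against 58.9 to 87.6 CPM in Propofol-control. The sum weighs the markers by level, and mean log2 CPM over all libraries was 6.55 for Cd14, 1.60 for Csf3r and -0.01 for Cxcr2. Of the neutrophil and monocyte markers tested, 7 of 10 were called higher under isoflurane and 6 of 11 under propofol. Of 7 endothelial markers, 5 were called lower under isoflurane and 2 under propofol, 1 being higher there. Of 10 macrophage and Kupffer cell markers, 6 were called higher and 1 lower under isoflurane, and 3 higher and 1 lower under propofol. Among all genes tested, 25.7% were called higher and 24.4% lower under isoflurane, and 20.4% and 21.7% under propofol. The propofol counts of endothelial and macrophage markers were thus near the background. The part of these other cells in the results below was not tested.

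**Figure D1:**
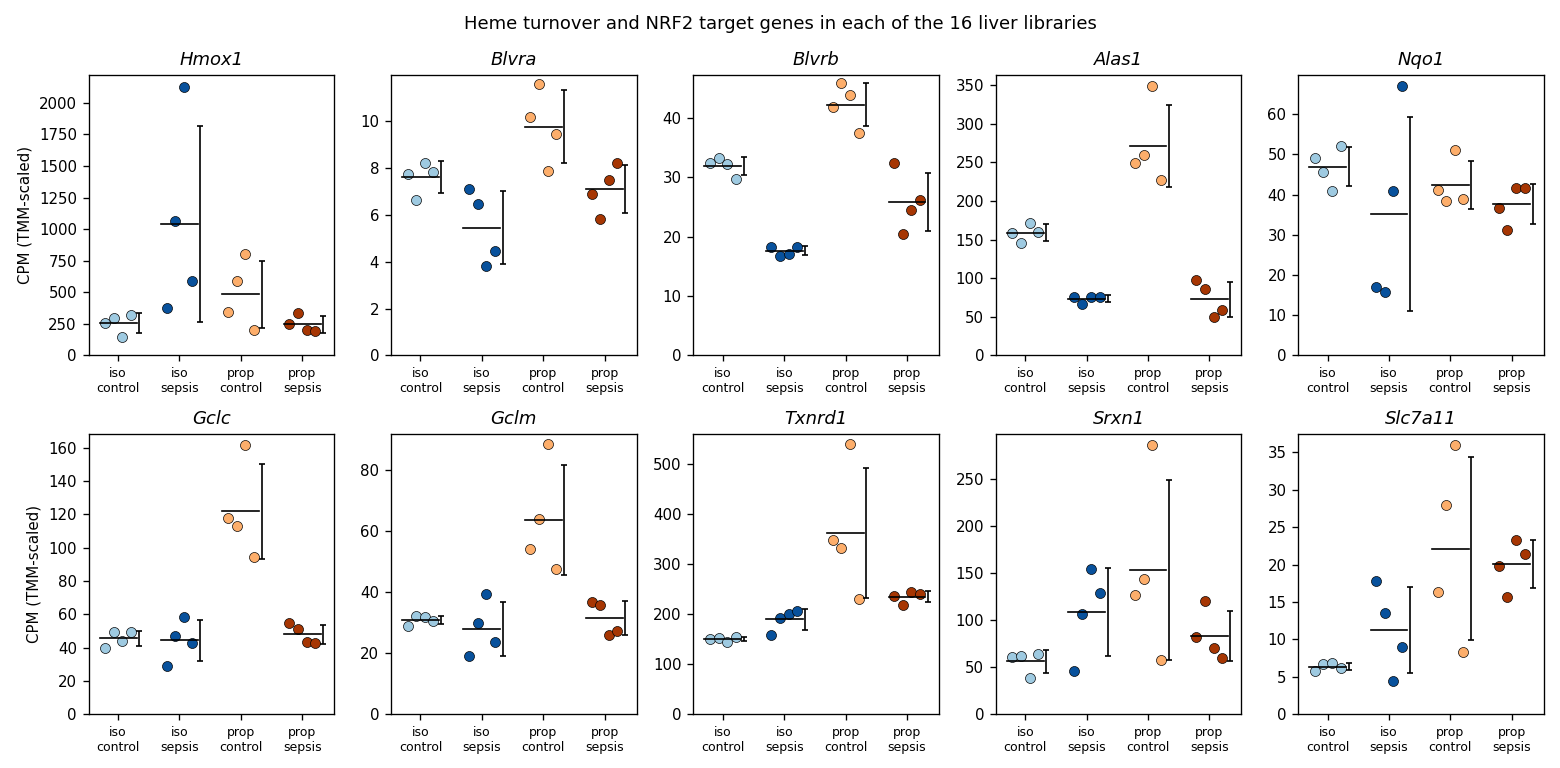
CPM of each gene (vertical axis, linear from 0, one panel per gene) in the 4 libraries of each group, shown as points in order of library number, with the group mean as a horizontal line and the SD as a bar. Hmox1 ranged from 375 to 2124 CPM in the Isoflurane-sepsis pools, while Alas1 and Blvrb lay low and close together there.

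Hmox1 rose with sepsis under isoflurane and was not called under propofol, where its difference was negative, and its level varied widely between the Isoflurane-sepsis pools. The 4 Isoflurane-control libraries held 257, 298, 144 and 320.1 CPM of Hmox1. The Isoflurane-sepsis libraries held 375, 1066, 2124 and 592 CPM, so that each septic pool lay above each control pool, the first of them only narrowly. The fold change was 4.12 (95% interval 1.85 to 9.19; log2 2.04 ± 0.51 SE, adjusted p = 0.00999). Library 3 carried much of the size, and without it the log2 difference was 1.41 (adjusted p = 0.0156). Under propofol the control libraries held 342, 589.9, 802 and 198 CPM of Hmox1 and the septic libraries 249, 339, 205 and 193 CPM. The 2 groups overlapped because the fourth control pool (library 16) was as low as the septic pools. The log2 difference was -0.98 ± 0.37, short of the threshold (adjusted p = 0.0579). It passed the threshold without library 16 (adjusted p = 0.00944), without library 10 (adjusted p = 0.0364) and with library totals in place of TMM (adjusted p = 0.0478), while without library 15 the log2 difference was -0.62 (adjusted p = 0.17).

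The difference between the 2 responses of Hmox1 was tested directly as an interaction. It was 3.00 ± 0.68 on the log2 scale, isoflurane minus propofol (adjusted p = 0.036), where 2.72% of 10621 genes were called. This call was not robust, since it was lost with limma-voom (adjusted p = 0.0556) and when any 1 of 11 of the 16 libraries was left out. Those were libraries 3, 5 to 9 and 11 to 15, with adjusted p between 0.0503 and 0.0761 and log2 differences between 2.38 (without library 3) and 3.13. Interaction calls among all genes fell in those fits too, from 289 to between 54 and 138. In septic livers alone, Hmox1 was 4.21-fold higher under isoflurane than under propofol (95% interval 1.96 to 9.04, adjusted p = 0.0245), and the 4 libraries of the first group (375 CPM and above) lay above the 4 of the second (339 CPM and below). That call was lost without library 9 (adjusted p = 0.0741), 11 (adjusted p = 0.0783) or 12 (adjusted p = 0.0813), and without library 3 the log2 difference went from 2.07 to 1.46. Without library 9, 11 or 12, calls among all genes between septic livers fell too, from 1982 to 289, 314 and 249 respectively. In control livers Hmox1 tended the other way, with a log2 difference of -0.92 that missed the threshold (adjusted p = 0.0667) and passed it without library 16 (adjusted p = 0.0088) and with library totals (adjusted p = 0.0337).

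Of the biliverdin reductases, Blvrb fell with sepsis under both anesthetics, and Blvra was called lower under propofol, a call that depended on single libraries. Blvrb, which also acts as a flavin reductase, was at 32.4, 33.2, 32.1 and 29.7 CPM in Isoflurane-control and at 18.3, 16.8, 17.1 and 18.3 CPM in Isoflurane-sepsis. The groups stood clear of each other, and the septic pools differed by only 1.09-fold from lowest to highest. Blvrb fell by 0.85 ± 0.07 on the log2 scale (1.80-fold lower, adjusted p = 6.7e-05). Under propofol it was at 41.9, 45.8, 43.7 and 37.4 CPM in controls and at 32.3, 20.4, 24.5 and 26.1 CPM in septic livers, again without overlap. It fell by 0.72 ± 0.13 (1.64-fold lower, adjusted p = 0.00181), and the 2 responses differed by -0.14 (95% interval -0.47 to 0.18, adjusted p = 0.581). Levels of Blvrb were lower under isoflurane than under propofol in control livers (1.33-fold, adjusted p = 0.000886) and in septic livers (1.47-fold, adjusted p = 0.0262), the second call being lost without library 2, 3, 9, 11 or 12 (adjusted p 0.0599 to 0.08). Calls among all genes between septic livers fell in those fits too, from 1982 to between 249 and 1253.

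Blvra, the main biliverdin reductase of adult tissue, had the fewest reads of the 10 genes. It was at 7.76, 6.63, 8.22 and 7.81 CPM in Isoflurane-control and at 7.08, 6.44, 3.83 and 4.47 CPM in Isoflurane-sepsis, where libraries 3 and 4 were low, library 2 lay just under the lowest control and library 1 lay within the controls. Its log2 difference of -0.48 ± 0.19 missed the threshold (adjusted p = 0.0566) and passed it without library 1 (adjusted p = 0.0163), without library 2 (adjusted p = 0.0491), with DESeq2 (adjusted p = 0.042), with limma-voom (adjusted p = 0.0379), with library totals (adjusted p = 0.0401) and with all 16 libraries in 1 fit (adjusted p = 0.0316). Under propofol the levels were 10.2, 11.6, 7.85 and 9.45 CPM in controls and 6.89, 5.81, 7.48 and 8.21 CPM in septic livers, library 12 being above the lowest control. Blvra fell by 0.46 ± 0.15 there (adjusted p = 0.0291), a call that was lost when library 9, 10, 11, 13, 14 or 16 was left out (adjusted p 0.0513 to 0.0867) and with thinned counts (adjusted p = 0.068).

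Alas1, the rate-limiting enzyme of heme synthesis in liver, fell in both settings, and its septic and control libraries did not overlap in either. Its level was 158, 146, 172 and 159 CPM in Isoflurane-control and 75.3, 66.5, 75.8 and 75.4 CPM in Isoflurane-sepsis. Alas1 fell by 1.11 ± 0.08 on the log2 scale (2.16-fold lower, 95% interval 1.91 to 2.45, adjusted p = 4.0e-05). In Propofol-control it was at 249.8, 259, 348 and 227 CPM, and in Propofol-sepsis at 97.1, 86.5, 49.2 and 58.5 CPM. It fell by 1.90 ± 0.22 there (3.74-fold lower, 95% interval 2.67 to 5.25, adjusted p = 0.00019). The septic groups ended at nearly the same mean, 73.2 ± 4.51 CPM under isoflurane and 72.8 ± 22.7 CPM under propofol (SD, n = 4), with a log2 difference of 0.01 (95% interval -0.45 to 0.46), whereas the controls differed by -0.77 ± 0.11 (adjusted p = 0.000439). The 2 responses differed by 0.78 (95% interval 0.25 to 1.31), which was not called (adjusted p = 0.087) except with DESeq2 (adjusted p = 0.0359).

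The genes for the later steps of heme synthesis were mostly lower as well. Of 13 other genes for heme enzymes and for transport of heme precursors, 12 were called lower under isoflurane with a median log2 difference of -0.57, where 24.4% of 10361 genes were called lower and the median of all genes was 0.01. Alad, the second enzyme, fell by 1.68 (adjusted p = 0.000106), Fech, which inserts the iron, by 1.00 (adjusted p = 0.000419), and Cpox by 0.85. Uros fell by 0.57, Urod by 0.51 and Ppox by 0.38. Among the carriers, Tmem14c fell by 0.96, Abcb6 by 0.43 and Abcb10 by 0.41. Slc25a38, the glycine carrier, was at 0.05 and was not called. Under propofol 8 of the 13 were called lower, with a median of -0.32, where 21.7% of 10348 genes were called lower. Alad fell by 1.25 and Tmem14c by 0.83, followed by Cpox (0.71), Fech (0.56), Abcb10 (0.40), Urod (0.31) and Abcb6 (0.19), while Slc25a38 rose by 0.28.

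Alas2, the erythroid form of the first enzyme, was at 6.24 ± 1.28 CPM in Isoflurane-sepsis and 6.50 ± 1.78 CPM in Isoflurane-control, and at 6.54 ± 1.70 and 8.52 ± 2.03 CPM in the septic and control livers under propofol (SD, n = 4). It was not called in either comparison (adjusted p = 0.801 and 0.173). The 9 erythroid markers, Alas2 among them, each had reads in every group, though not necessarily in every library. They summed to 386 to 503 CPM in Isoflurane-sepsis and 385 to 574 CPM in its controls. Under propofol they summed to 406 to 557 and 425 to 684 CPM, so the ranges overlapped in both settings.

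**Figure D2:**
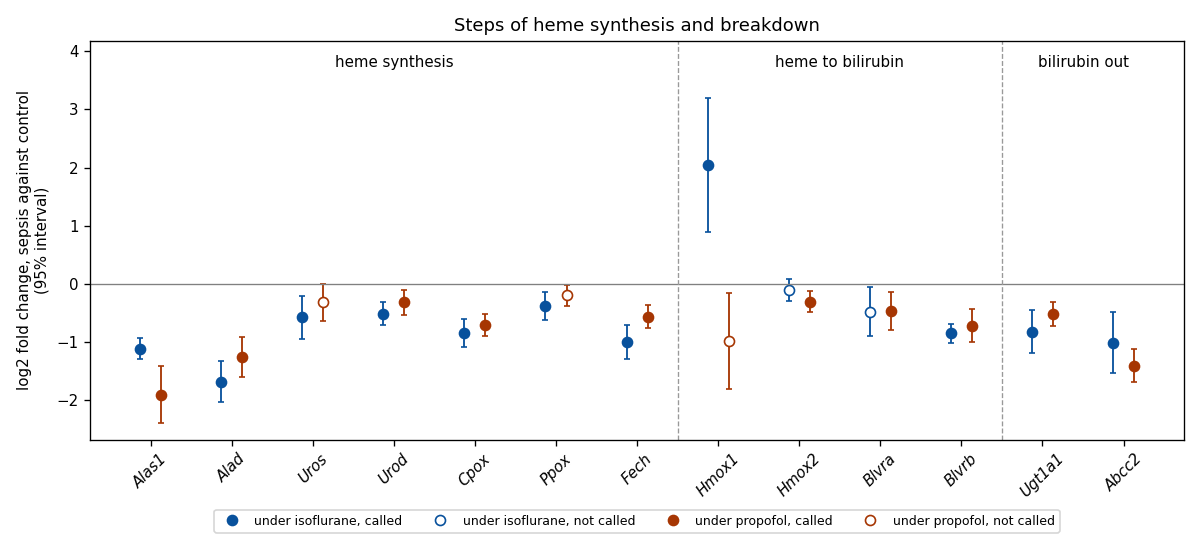
Log2 fold change of sepsis against control (vertical axis, with 95% intervals) for enzymes of heme synthesis, of heme breakdown and of bilirubin export, under isoflurane (blue) and propofol (brown), with filled points for called genes. Hmox1 under isoflurane, at 2.04, is the one value above 0 on this plot.

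Around Hmox1 in the breakdown pathway, 12 further genes were measured, of which 2 were called higher and 5 lower under isoflurane, and 2 higher and 8 lower under propofol. Over all genes 25.7% were higher and 24.4% lower under isoflurane, and 20.4% and 21.7% under propofol. Hmox2, the constitutive heme oxygenase, was at -0.11 under isoflurane (adjusted p = 0.296) and fell by 0.31 under propofol (adjusted p = 0.0126). Hpx (hemopexin), the plasma protein that binds free heme, rose by 0.46 and 0.35 respectively. Hp (haptoglobin), which binds free hemoglobin, was at 0.09 under isoflurane (adjusted p = 0.321) and rose by 0.18 under propofol. The hemoglobin-haptoglobin receptor Cd163 rose by 0.35 under isoflurane. Abcc2, which exports conjugated bilirubin into bile, fell by 1.01 and by 1.40, and the heme exporter Abcg2 fell by 0.76 and by 0.59. Ugt1a1, which conjugates bilirubin, fell by 0.82 under isoflurane, and its reads may be split with other Ugt1a genes that share its exons. Abcc3, an exporter toward blood, fell by 0.89 under propofol.

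Among listed regulators and drug-induced partners of Alas1, 1 of 13 tested was called higher and 5 lower under isoflurane, and 1 of 12 higher and 6 lower under propofol. Over all genes 25.7% were called higher and 24.4% lower under isoflurane, and 20.4% and 21.7% under propofol. The clock factor Arntl rose by 1.73 and 1.75. The nuclear receptor Nr1i2 (PXR) fell by 1.27 and 0.89, and the phenobarbital-inducible Cyp2b1 by 3.07 and 2.18, a gene with near-identical relatives between which reads can be split. Nr1i3 (CAR) was called lower in both settings, at 0.0604 to 0.881 CPM in Isoflurane-sepsis against 2.35 to 5.20 CPM in controls, and at 0.0534 to 1.02 CPM in Propofol-sepsis against 8.56 to 18.5 CPM. The lowest septic libraries held 1 read of Nr1i3, so no fold change is given.

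The glutathione synthesis genes Gclc and Gclm fell with sepsis under propofol and were not called under isoflurane. Gclc encodes the catalytic subunit of glutamate-cysteine ligase. It was at 118, 113, 162 and 94.3 CPM in Propofol-control and at 54.6, 51.3, 43.2 and 42.9 CPM in Propofol-sepsis, with a wide gap between the groups. Gclc fell by 1.35 ± 0.15 on the log2 scale (2.55-fold lower, 95% interval 2.01 to 3.25, adjusted p = 0.000186). Under isoflurane the control libraries held 39.7, 49.1, 44.1 and 49.3 CPM of Gclc and the septic libraries 28.9, 47.2, 58.3 and 42.8 CPM, so the groups overlapped. The log2 difference was -0.03 (95% interval -0.47 to 0.40, adjusted p = 0.896), and it turned to 0.13 without library 1. The responses differed by 1.31 ± 0.26 (adjusted p = 0.0244), which was lost without library 7 (adjusted p = 0.0517) or library 12 (adjusted p = 0.0539). The Propofol-control livers stood apart for Gclc, since the other 3 groups had means of 44.3, 45.6 and 48.0 CPM against 122 CPM.

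Gclm encodes the modifier subunit of the same enzyme and had the same order of levels. It was at 54.2, 64.0, 88.5 and 47.5 CPM in Propofol-control and 36.7, 35.8, 26.02 and 27.2 CPM in Propofol-sepsis, and it fell by 1.03 ± 0.19 (2.04-fold lower, adjusted p = 0.00232). Its levels were 29.0, 32.2, 31.7 and 30.6 CPM in Isoflurane-control and 19.0, 29.9, 39.5 and 23.8 CPM in Isoflurane-sepsis. The septic pools lay on both sides of the tight controls, with a log2 difference of -0.13 (95% interval -0.59 to 0.33, adjusted p = 0.615). The interaction of Gclm was 0.88 (95% interval 0.25 to 1.51) and was not called (adjusted p = 0.0991) unless library 1 was left out (adjusted p = 0.0218). The fit without library 1 called 1615 of all genes in place of 289.

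Slc7a11, the cystine carrier that feeds glutathione synthesis, varied more between pools than Gclc and Gclm in the Isoflurane-sepsis and Propofol-control groups. It was at 5.74, 6.73, 6.78 and 6.19 CPM in Isoflurane-control and at 17.8, 13.6, 4.51 and 8.94 CPM in Isoflurane-sepsis, where library 3 was below and the other 3 libraries were above every control. The log2 difference was 0.82 ± 0.34 (adjusted p = 0.07), and it was called without library 3 (1.08, adjusted p = 0.00404) and with DESeq2 (adjusted p = 0.0366). Under propofol the controls were at 16.3, 27.9, 35.9 and 8.35 CPM and the septic livers at 19.8, 15.7, 23.2 and 21.4 CPM, with a log2 difference of -0.15 (95% interval -0.95 to 0.65, adjusted p = 0.756). Slc3a2, the partner chain of Slc7a11, was at 0.20 under isoflurane and -0.02 under propofol and was called in neither (adjusted p = 0.159 and 0.918).

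In the thioredoxin and peroxiredoxin system, Txnrd1 and Srxn1 rose with sepsis under isoflurane, and Txnrd1 fell under propofol. Txnrd1 (cytosolic thioredoxin reductase) was at 150.3, 151, 145 and 154 CPM in Isoflurane-control and at 159, 192, 199.7 and 207 CPM in Isoflurane-sepsis. The groups did not overlap, and Txnrd1 rose by 0.34 ± 0.09 (1.26-fold, 95% interval 1.09 to 1.46, adjusted p = 0.0155), although not in a fit with all 16 libraries (adjusted p = 0.119). In Propofol-control it was at 347, 332, 541 and 229.8 CPM and in Propofol-sepsis at 235, 218, 244 and 241 CPM, so that library 16 of the controls lay among the septic pools. It fell by 0.63 ± 0.21 (1.55-fold lower, adjusted p = 0.0322), and this call was lost without any 1 library other than library 16 (adjusted p 0.0505 to 0.063). The interaction was 0.96 ± 0.25 (adjusted p = 0.0492), close to the threshold, and was lost in 14 of 16 fits that left out 1 library, all except those without library 1 or 16 (adjusted p 0.0579 to 0.1), and with RLE size factors, library totals, limma-voom, no filter and thinned counts (adjusted p 0.05 to 0.0637).

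Srxn1 (sulfiredoxin) repairs overoxidized peroxiredoxins. It was at 60.7, 61.9, 38.5 and 64.0 CPM in Isoflurane-control and at 45.5, 107, 154 and 129 CPM in Isoflurane-sepsis. Libraries 2 to 4 were above every control, and library 1 was not. Srxn1 rose by 0.96 ± 0.33 (1.94-fold, 95% interval 1.15 to 3.28, adjusted p = 0.039), but the call was lost without any 1 library other than library 1 (adjusted p 0.0662 to 0.102), with limma-voom (adjusted p = 0.0727) and with all 16 libraries in 1 fit (adjusted p = 0.0604). Under propofol it was at 127, 144, 286 and 57.5 CPM in controls and 81.7, 120.2, 70.2 and 60.2 CPM in septic livers, with library 16 again the lowest control. The log2 difference of -0.89 ± 0.40 was not called (adjusted p = 0.101) unless library 16 was left out (-1.17, adjusted p = 0.018). The interaction of 1.84 was not called (adjusted p = 0.083), and it was with DESeq2 (adjusted p = 0.0377) and without library 1 (adjusted p = 0.0169) or library 16 (adjusted p = 0.0424). Among all genes, DESeq2 called 847 and the fit without library 1 called 1615, in place of 289.

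Nqo1, which reduces quinones and is often used as a marker of NRF2 activity, was not called in any of the comparisons. It was at 49.1, 45.7, 40.8 and 52.2 CPM in Isoflurane-control, while the Isoflurane-sepsis libraries held 17.0, 15.8, 40.9 and 67.0 CPM. The first 2 septic pools were far below the controls, the third was at their lower edge and the fourth was above them. The log2 difference was -0.41 (95% interval -1.35 to 0.52, adjusted p = 0.432), and without library 4 it was -0.92 (adjusted p = 0.0416). Under propofol Nqo1 was at 41.2, 38.5, 51.0 and 38.8 CPM in controls and at 36.6, 31.2, 41.6 and 41.6 CPM in septic livers, with a log2 difference of -0.17 (95% interval -0.43 to 0.09, adjusted p = 0.254).

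**Figure D3:**
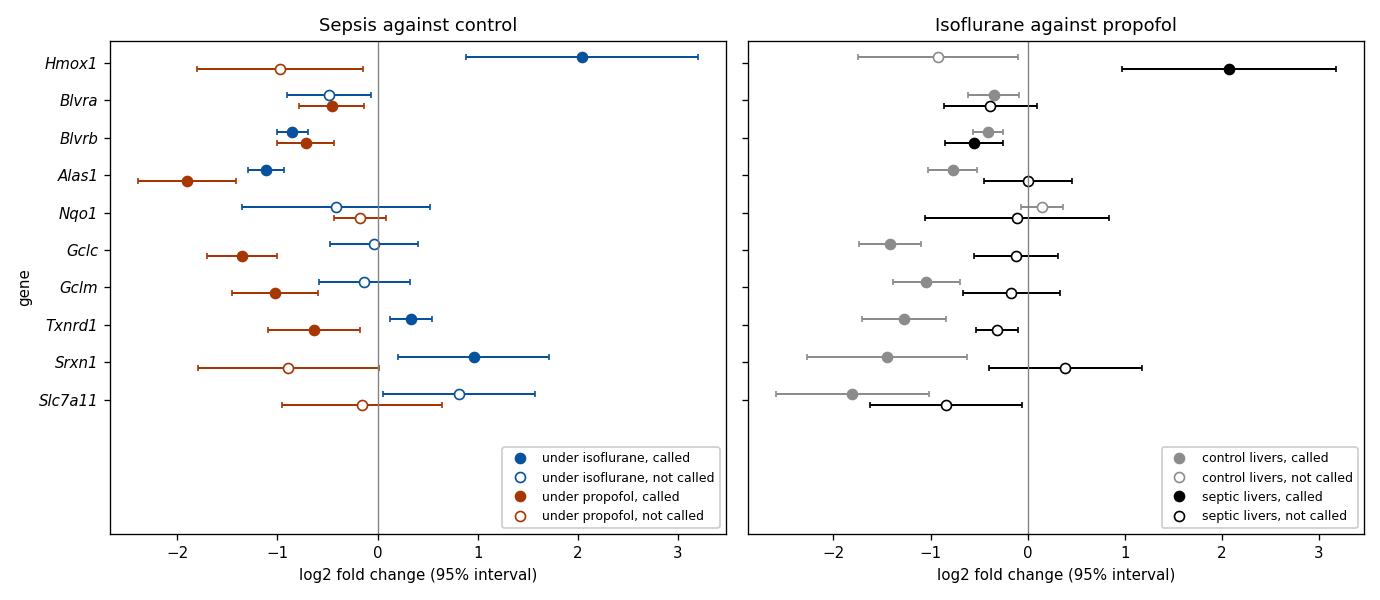
Log2 fold changes (horizontal axis, with 95% intervals) of the 10 genes for sepsis against control under each anesthetic (left) and for isoflurane against propofol in control and in septic livers (right), with filled points for called genes. In control livers 8 of the 10 genes were called lower under isoflurane (gray), and in septic livers 2 were called (black).

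Counted over the 10 genes, 5 were called under isoflurane (3 higher, 2 lower), where 50.0% of 10361 genes were called, 25.7% higher and 24.4% lower. Under propofol 6 were called, each of them lower, where 42.1% of 10348 genes were called in either direction. The isoflurane share was thus near the background, while the propofol share of lower calls was above the 21.7% of all genes. Because the 10 genes were chosen with earlier results of these data known, these shares describe the list and test nothing. Septic and control libraries did not overlap for 4 genes under isoflurane, Hmox1 and Txnrd1 above and Blvrb and Alas1 below, against 48.7% of all genes. They did not overlap for 4 genes under propofol, Blvrb, Alas1, Gclc and Gclm, each below, against 42.2% of all genes. The interaction was called for 3 genes, Hmox1, Gclc and Txnrd1, where 2.72% of 10621 genes were called. Each of these 3 calls was lost in some fits that left out 1 library. The median interaction over the 10 genes was 0.92 against -0.02 over all genes.

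The control livers of the 2 anesthetics differed in most of the 10 genes. Under isoflurane 8 of 10 were called lower than under propofol, where 43.3% of 10314 genes were called and 21.7% were called lower, and the median log2 difference was -0.98. The called genes were Slc7a11 (-1.80, 3.49-fold, adjusted p = 0.00234), Srxn1 (-1.45, adjusted p = 0.0101), Gclc (-1.42, 2.67-fold, adjusted p = 4.1e-05), Txnrd1 (-1.27, adjusted p = 0.000542), Gclm (-1.04), Alas1 (-0.77), Blvrb (-0.41) and Blvra (-0.35, adjusted p = 0.0351). Of these, Blvra lost its call without library 5, 6, 8, 13 or 14 (adjusted p 0.0673 to 0.0984), with thinned counts (adjusted p = 0.0549) and with all 16 libraries in 1 fit (adjusted p = 0.139). For 6 of the 10 genes the control groups did not overlap, each lower under isoflurane, against 40.3% of all genes. Nqo1, at 0.15, was not called (adjusted p = 0.249) except without library 15 (0.25, adjusted p = 0.0268). With library totals the median of all genes shifted by -0.15 in this comparison, and 1139 genes were called higher and 3824 lower in place of 2225 and 2243.

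Between the septic livers of the 2 anesthetics, Hmox1 was higher and Blvrb lower under isoflurane, 2 of 10 called where 19.3% of 10272 genes were called, a share near the background. Hmox1, Blvrb and Txnrd1 did not overlap between the groups, against 25.6% of all genes. Txnrd1 was at -0.31 (adjusted p = 0.0516) and was called with DESeq2 (adjusted p = 0.0178), with limma-voom (adjusted p = 0.0496), with library totals (adjusted p = 0.0143) and without library 4 (adjusted p = 0.0477) or library 10 (adjusted p = 0.0496). Slc7a11 was at -0.84 (adjusted p = 0.108) and was called without library 1 (-1.16, adjusted p = 0.0329). With library totals the median of all genes shifted by -0.16, with 594 genes called higher and 2177 lower in place of 1092 and 890.

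Several regulators of the pathway were called in both settings. Of 12 NRF2 pathway regulators, 7 were called higher under isoflurane, where 25.7% of all genes were, with a median log2 difference of 0.43. The small MAF genes Maff, Mafg and Mafk rose by 2.77 (adjusted p = 0.00395), 1.11 (adjusted p = 0.000226) and 0.79 (adjusted p = 0.00205), and the repressor Bach1 rose by 1.62 (adjusted p = 0.000433). Maff was uneven between the Isoflurane-sepsis pools, from 28.9 CPM in library 1 to 217 CPM in library 3, against 9.94 to 15.6 CPM in controls. Nfe2l1, the ubiquitin ligase scaffold Cul3 and the coactivator Crebbp rose by 0.47, 0.39 and 0.47. Nfe2l2 itself was at 0.31 (adjusted p = 0.0996) and Keap1 at -0.16 (adjusted p = 0.174). Under propofol 4 were called higher and 3 lower, where 20.4% and 21.7% of all genes were. Bach1 rose by 1.30, Mafg by 0.31, Nfe2l1 by 0.24 and Cul3 by 0.21, while Nfe2l2 fell by 0.50 (adjusted p = 0.000892), Keap1 by 0.28 and the autophagy adaptor Sqstm1 by 0.92. The difference between responses was called for Nfe2l2 (0.79, adjusted p = 0.0249) and Mafg (0.79, adjusted p = 0.022), where 2.72% of all genes were called. Whether these calls hold with 1 library left out is not reported here. Interaction calls among all genes then ranged from 54 to 1615 in place of 289.

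Most other NRF2 targets on the list were not called higher. Under isoflurane 4 of 28 tested were called higher and 12 lower, with a median of -0.25, and under propofol 2 of 29 were called higher and 19 lower, with a median of -0.50. Over all genes 25.7% were called higher and 24.4% lower under isoflurane, and 20.4% and 21.7% under propofol. Akr1b8, an aldo-keto reductase of a family with close relatives, rose by 1.77 and Ugdh, which makes UDP-glucuronate, by 0.86 under isoflurane, and the glutathione peroxidase Gpx2 rose by 2.13 under propofol. Gpx2 was low and uneven, at 1.87 to 6.61 CPM in Propofol-sepsis against 0.714 to 1.09 CPM in controls, with as few as 15 reads there. The falls of largest size under isoflurane were those of Idh1 (1.63), Akr7a3 (1.47) and catalase, Cat (0.96). Under propofol they were those of Akr7a3 (2.51), Osgin1 and Idh1 (both 1.54). The difference between responses was called for Osgin1 (2.19, adjusted p = 0.0217) and Ugdh (0.66, adjusted p = 0.0466), where 2.72% of all genes were called. Osgin1 was at 44.9 to 166 CPM in the Isoflurane-sepsis pools and at 55.3 to 66.8 CPM in their controls. Whether these calls hold with 1 library left out is not reported here. In control livers 20 of 29 were called lower under isoflurane than under propofol and 2 higher, where 21.7% and 21.6% of all genes were, with a median of -0.57.

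Slc7a11 and several of its neighbors are also targets of ATF4, the transcription factor of the integrated stress response. Of 12 ATF4 pathway genes, 7 were called higher and 1 lower under isoflurane, and 1 higher and 3 lower under propofol. The shares over all genes were 25.7% higher and 24.4% lower under isoflurane, and 20.4% and 21.7% under propofol, so the 3 lower calls were near the background. Atf3 rose by 3.74 and 1.12, and Ddit4 and Vldlr rose by 2.35 and 1.54 under isoflurane. Atf3 was uneven between the Isoflurane-sepsis pools, from 41.2 CPM in library 1 to 610 CPM in library 3 (SD of log2 CPM 1.78). Its levels in Isoflurane-control were 10.8 to 19.4 CPM. Under propofol its septic pools (15.1 to 48.8 CPM) overlapped the controls (5.57 to 15.6 CPM). The serine synthesis genes Phgdh (0.83) and Psat1 (0.52) and the pseudokinase gene Trib3 (1.25) fell under propofol, and Phgdh (1.13) fell under isoflurane. In control livers 8 of the 12 were called lower under isoflurane than under propofol, where 21.7% of all genes were.

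The spread between Isoflurane-sepsis pools differed from gene to gene. The SD of log2 CPM was 1.08 for Hmox1, 1.01 for Nqo1, 0.85 for Slc7a11 and 0.78 for Srxn1, against a median of 0.24 over 10621 genes in this group. Those values stood at percentiles 97.9, 97.4, 95.4 and 94.1 of all genes. Gclm, Gclc and Blvra were intermediate at 0.45, 0.42 and 0.41, and Txnrd1 was at 0.17. Alas1 and Blvrb were among the most even genes of the group, with 0.09 (percentile 9.84) and 0.07 (percentile 4.48). The highest pool was 5.66 times the lowest for Hmox1, 4.24 times for Nqo1 and 1.14 times for Alas1. For Srxn1, library 1 set most of the spread, which was 0.27 without it, and for Slc7a11 it was library 3, with 0.50 without it.

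The pools did not keep 1 order across the genes. Relative to the mean of the Isoflurane-control libraries on the log2 scale, Hmox1 was at 0.62, 2.13, 3.12 and 1.28 in libraries 1 to 4, and Srxn1 at -0.28, 0.95, 1.48 and 1.22. Gclc and Gclm were also lowest in library 1 (-0.65 and -0.70) and highest in library 3 (0.36 for both). Slc7a11 was highest in library 1 and lowest in library 3, at 1.48, 1.09, -0.49 and 0.49, and Nqo1 was lowest in library 2 and highest in library 4, at -1.46, -1.56, -0.19 and 0.52. Of the 10 genes, 5 were highest in library 3 and 5 were lowest in library 1. The summed neutrophil and monocyte markers were lowest in library 1 and highest in library 4, and the 10 macrophage and Kupffer cell markers, none at 0, summed to 511, 457, 487 and 609 CPM in libraries 1 to 4 against 387 to 478 CPM in Isoflurane-control.

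**Figure D4:**
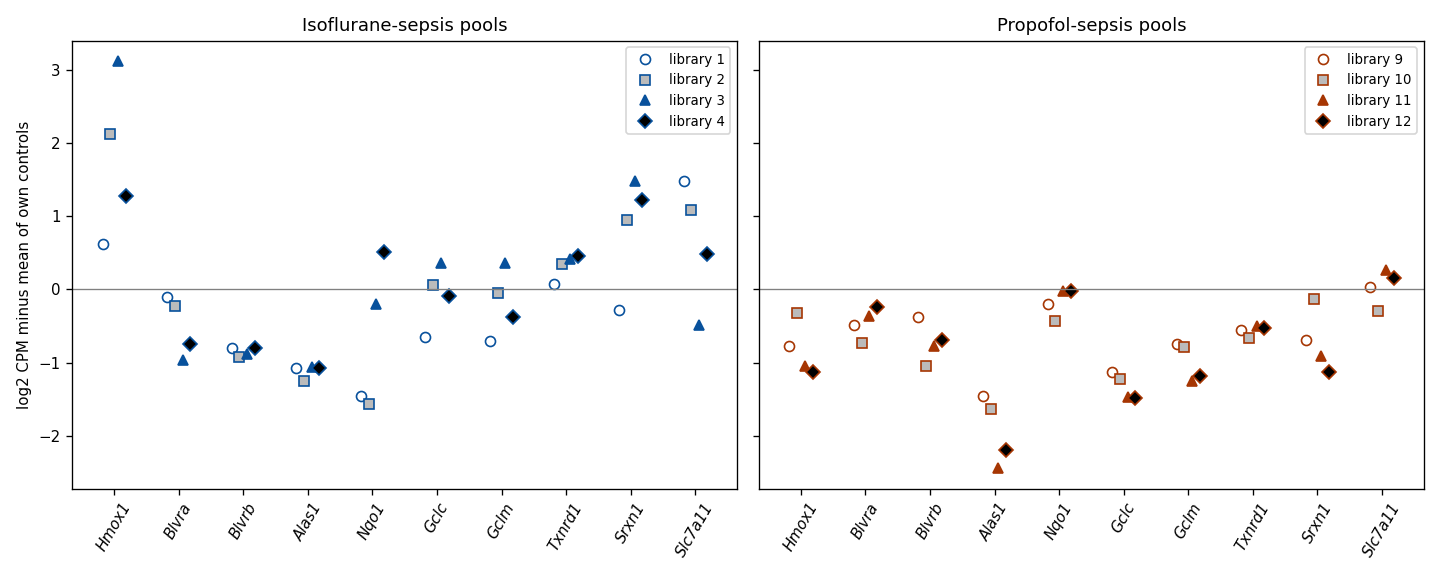
Log2 CPM of each gene in the 4 septic pools of each anesthetic, minus the mean of the control pools of the same anesthetic (vertical axis), with 1 symbol per library. Under isoflurane library 3 was the highest pool for Hmox1, at 3.12, and the lowest for Slc7a11, at -0.49.

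The Propofol-control pools were uneven as well. The SD of log2 CPM was 0.95 for Srxn1, 0.93 for Slc7a11, 0.89 for Hmox1 and 0.51 for Txnrd1, against a median of 0.15 over all genes, and the first 3 stood at percentiles 99.4, 99.3 and 99.1. Of the 10 genes, 8 were highest in library 15 and 8 were lowest in library 16. Maff showed the same, at 5.09 to 51.3 CPM, with the lowest value in library 16 and the highest in library 15. In Isoflurane-control the SD of Hmox1 was 0.52 (percentile 97.6), with library 7 low, and that of Txnrd1 was 0.04.

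The genes whose pattern over the 16 libraries was most like that of Hmox1 were sought among 8892 genes, by the root mean square difference of log2 CPM after centring each gene on its own mean. Outside the lists used here, they were Myc (0.52), Dact2 (0.53), Parp16 (0.53), Vegfa (0.55) and Ell (0.57). Mean levels of Myc were 89.6 CPM in Isoflurane-sepsis, 33.1 in Isoflurane-control, 46.3 in Propofol-sepsis and 68.9 in Propofol-control, the same order of groups as for Hmox1 (1039, 255, 247 and 483 CPM) except that the lower pair was reversed. Srxn1 came 40th (0.68), and the other members came between 3164th and 8371st. The genes most like Alas1, again outside the lists, were Slc35d2 (0.30), Adh7 (0.32), Palmd (0.33), Rmdn2 (0.34) and Cobl (0.35), and Blvrb came 183rd (0.50). Slc35d2 had means of 3.29, 8.20, 2.55 and 9.34 CPM over the groups in the same order.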

How the data were processed

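Poly(A) RNA of pooled rat liver was sequenced single-end with a strand-specific kit. The authors deposited raw read counts per gene, 1 table per library, and per the submitters' processing notes STAR and the rn5 build were used. For the counting program and the annotation, the name is not given in the sources used here. Entries for reads outside genes (21.6 to 25.4% per library) and ambiguous reads (1.07 to 1.35%) were left out. Groups came from the library titles. The deposited counts were fitted with edgeR 4.0.16 in R 4.3.3 (TMM, quasi-likelihood test, filterByExpr with at least 10 counts, 15 in all), with only the groups compared in each fit and all 16 libraries for the interaction. Alternatives were RLE factors, library totals, DESeq2 1.42.0 (the study's tool), limma-voom 3.58.1, no filter, a mean of 1 CPM, thinned counts, 1 fit of all libraries, adjusted p below 0.01 and leaving out each library. The fitting steps were tested on simulated data. Figures were drawn with matplotlib 3.10.9.

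The 10 genes, the other gene lists and the markers were chosen with earlier results of these data known. Named were all 10 genes, with the exceptions below every called NRF2 regulator and heme synthesis gene, and from the other lists up to 3 called rises and 3 called falls of largest size per sepsis comparison among genes whose mean log2 CPM was 1 or more. Hmox2, Hpx, Hp, Nfe2l2, Keap1, Bach1, Alas2, Slc3a2 and the 5 genes most like Hmox1 and Alas1 were named whatever their values. Levels of Maff, Atf3, Osgin1 and Gpx2 were added after their values were seen. Of the listed symbols other than markers, Flvcr1, Slco1b2, Slco1a4, Bach2, Pgd and Ftl1 were not matched. A few genes of these lists that the rule names are not reported here. Replicate libraries differed by more than sampling noise in every pair.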

Additional observations from a re-analysis of the deposited data

Results flagged for a closer look

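In the 40 sets of 4 libraries (10 genes in 4 groups), 2 held a library far from the other 3 by Dixon's ratio, the gap to the nearest library divided by the range, above its 95% critical value. Chance flags about 1 in 20 such sets. Alas1 in Isoflurane-sepsis had a ratio of 0.953, since library 2 at 66.5 CPM lay below the other 3 at 75.3 to 75.8 CPM. Srxn1 in Isoflurane-control had a ratio of 0.873, since library 7 at 38.5 CPM lay below 60.7 to 64.0 CPM, and the rise of Srxn1 with sepsis was not called without it (adjusted p = 0.102).

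The response to sepsis differed between the anesthetics, by the interaction test of edgeR, for Hmox1 (3.00 on the log2 scale, isoflurane minus propofol, adjusted p = 0.036), Gclc (1.31, adjusted p = 0.0244) and Txnrd1 (0.96, adjusted p = 0.0492). All 3 calls depended on single libraries. The 8 libraries of each anesthetic share the induction drug and the opening code of the file names, so none of these differences can be assigned to the anesthetic alone.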

How the results depend on the processing

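The falls of Alas1 and Blvrb with sepsis under both anesthetics, the rise of Hmox1 under isoflurane and the falls of Gclc and Gclm under propofol stayed called at an adjusted p below 0.05 in every alternative run. With 4 pools per group, calls of small or uneven changes turned on single libraries. At an adjusted p below 0.01 the number of the 10 genes called fell from 5 to 3 under isoflurane, from 3 to 0 for the interaction and from 2 to 0 in septic livers between the anesthetics. Calls among all genes fell as well, from 5183 to 3200, from 289 to 9 and from 1982 to 121 in the same order. By edgeR, 6 and 4 of the 10 genes had an unadjusted p below 0.05 in the last 2, and DESeq2 called 5 and 3. For the interaction limma-voom called 1 gene, and leaving out 1 library gave 0 to 5 genes, against 0 to 3 in septic livers, 4 to 6 under isoflurane, 4 to 7 under propofol and 7 to 9 in control livers. Over all genes, DESeq2 called 847 in the interaction against 289 by edgeR, and 2885 against 1982 in septic livers. For the interaction limma-voom called 227 of all genes. Leaving out 1 library gave 54 (library 12) to 1615 (library 1) of all genes in the interaction. In septic livers it gave 249 (library 12) to 2867 (library 1). Under isoflurane it gave 4145 (library 8) to 5668 (library 1) of all genes, and under propofol 3501 (library 14) to 4291 (library 10). For control livers the range was 3715 (library 8) to 4321 (library 16). Of the 13 other heme synthesis genes, 5 were called lower under propofol at an adjusted p below 0.01 against 8, and 5 to 8 with 1 library left out (5 without library 16). Lower calls among all genes under propofol went from 2246 to 1374 at an adjusted p below 0.01.

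Signs turned only for differences near 0 that were never called. Slc7a11 under propofol went from -0.15 to 0.043 with limma-voom and from -0.42 to 0.19 with 1 library left out. Alas1 in septic livers between the anesthetics went to -0.14 with library totals and from -0.14 to 0.17 with 1 library left out. With 1 library left out, Gclc and Gclm under isoflurane ranged from -0.21 to 0.13 and from -0.36 to 0.024, the interaction of Blvra from -0.19 to 0.11, and Gclc and Nqo1 in septic livers between the anesthetics from -0.28 to 0.042 and from -0.62 to 0.13. The cause of these changes was not tested. No paired analysis was possible because the groups share no replicate numbers.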
